A study of Mus musculus with 90 samples.

Results

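The 10 genes described here are the mouse serpins Serpina1a, Serpina1b, Serpina1c, Serpina1d, Serpina1e, Serpina3c, Serpina3k, Serpina3m, Serpina3n and Serpina12. They were taken by symbol from 4 tables of Salmon counts that share 27654 gene IDs, and all 10 were found. The members were chosen by their measured levels across diet, genotype, time of day and corticosterone in these same libraries, so each call given below describes a difference beside the spread between libraries and is no independent evidence for it. All 10 passed the filter on low counts in every comparison.

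The liver secretes most of the protease inhibitors of the plasma, and serpins are prominent among them. A serpin offers an exposed reactive-centre loop as bait: the protease cuts the loop, the loop inserts into the body of the inhibitor, and the protease is carried along and disabled. Serpina1a to Serpina1e are tandem mouse copies of the gene for alpha-1-antitrypsin, the inhibitor of neutrophil elastase, and the Serpina3 genes are copies related to the gene for alpha-1-antichymotrypsin. Serpina12 encodes vaspin, known as an adipokine. Several of these proteins belong to the acute-phase response, which glucocorticoids, acting through the glucocorticoid receptor (GR), raise together with cytokines that act through STAT and C/EBP factors.

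Livers of male C57BL/6J mice, 12 weeks old at the start, were profiled by bulk RNA-seq in 90 libraries. In the time series, WT mice carried floxed GR alleles without Cre (GRfl/fl), and GRLKO mice carried the same alleles with Cre driven by the albumin promoter, which acts in hepatocytes and leaves GR in the other cells of the liver. Both genotypes were on a control diet (ctrl., free feeding that per the study's methods was confined to the night in the last week) or on caloric restriction (cal. res., stepped down to 40% less food, given at lights off), and livers were taken at zeitgeber times (ZT) 0, 4, 8, 12, 16 and 20 h, with lights off at ZT12. Each cal. res. group had 3 libraries and each ctrl. group 3 or 4. A diet experiment compared 3 ctrl. with 3 cal. res. WT livers at ZT12 (its ctrl. titles carry the letters AL, while the treatment label gives night-restricted feeding, as in the last week of the ctrl. diet). A corticosterone experiment compared 3 night-restricted WT livers with 3 from WT mice given 5 mg/kg corticosterone (CORT) for 7 days, at ZT12. Per the study's methods, corticosterone or an ethanol and oil vehicle was injected intraperitoneally each day, and both groups were fed at night only. The study's methods call the replicates biological, and the p-values measure the spread between these libraries. The diets of the time series were deposited in separate tables, so that diet and library set cannot be told apart there. The diet contrast was made in the diet experiment and, between genotypes, through the genotype by diet interaction. That interaction cancels only what a library set shifts alike in both genotypes. A genotype difference that varied with the set cannot be told apart from one that varied with diet. In bulk liver, fewer cells of a type and less RNA per cell cannot be told apart.

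Library totals were 10057361 to 17088856 counts in the ctrl. series, 14235288 to 20788402 in the cal. res. series, 36442097 to 39492039 in the diet experiment and 13739496 to 16077786 in the corticosterone experiment. Nr3c1, which encodes GR, was at 72.8 to 117 CPM (counts scaled to library size, after TMM within a table) in ctrl. WT and 16.2 to 28.8 CPM in ctrl. GRLKO livers, and at 70.5 to 113 and 21.6 to 32.2 CPM on cal. res., without overlap of the genotypes on either diet. The 7 hepatocyte markers were above 0 in every group. The cal. res. WT ZT12 replicate 3 and the ctrl. WT ZT16 replicate 2 carried 7 exocrine pancreas markers at a sum of 602 and 297 CPM, against at most 2.48 CPM in the other libraries. Values without them are given with the genotype, interaction, genotype by time and rhythm calls that used them. The diet values from time-series WT livers at ZT12 include the former, and the joint fits of each diet include both. These were not refitted without them. The 4 adipocyte markers summed to 2.54 to 49.0 CPM in ctrl. GRLKO and at most 1.54 CPM in ctrl. WT livers, with 2 or 3 of the 4 at 0 in each ctrl. GRLKO group. On cal. res. they reached 5.39 CPM in GRLKO and 0.119 CPM in WT livers, without overlap of the genotypes at ZT0, ZT8 and ZT20, and their part in the genotype differences was not tested.

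All 10 genes lie in 1 array on chromosome 12 (GRCm38, GENCODE annotation), with 5 exons each in the transcript used here except Serpina1a, which has 6. Serpina1b (chr12:103728156-103830373), Serpina1d (chr12:103763594-103773592), Serpina1a (chr12:103853589-103863562), Serpina1c (chr12:103894926-103904887), Serpina1e (chr12:103946931-103958975), Serpina12 (chr12:104028769-104044443) and Serpina3c (chr12:104146382-104153870) are on the minus strand. Serpina3k (chr12:104338486-104346144), Serpina3m (chr12:104338486-104394257) and Serpina3n (chr12:104406729-104414329) are on the plus strand. The annotated Serpina3m gene begins at the same base as Serpina3k and spans it, and the annotated Serpina1b gene spans Serpina1d.

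The copies are close in sequence. Coding sequences of Serpina1a to Serpina1e were 96.3 to 98.5% identical over 10 pairs, those of the 4 Serpina3 members 83.5 to 91.8% over 6 pairs, and Serpina12 was 56.2 to 58.2% identical to the others. Salmon divides reads that fit several copies by the reads that fit only 1. Of the 31-base words in its transcripts, Serpina1c had 17.8% found in no other gene of the annotation, Serpina1a 34.8%, Serpina1d 35.3%, Serpina1e 45.8% and Serpina1b 55.3%. The share was 65.0% for Serpina3m, 75.8% for Serpina3k, 78.4% for Serpina3n, 83.1% for Serpina3c and 100% for Serpina12. The level of a single Serpina1 copy is therefore uncertain as far as its reads could be assigned to another. So is that of Serpina3m, which shared 24.5% of its words with Serpina3k, a gene with higher mean levels in both diets and genotypes. The sum over the 5 Serpina1 copies is given beside the diet and corticosterone values and, for the time series, in a paragraph of its own.

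The bases that encode the reactive-centre loop are shown because the Serpina1 proteins differ there and their reads can be told apart there. The windows run 5′ to 3′ on the coding strand in the last exon, from the codons of the conserved hinge to the start of the next strand, and capitals mark bases that are not the same in all 5 genes, 18 of 81 or 22.2%. They lie at chr12:103853750-103853830 (Serpina1a), chr12:103728317-103728397 (Serpina1b), chr12:103895087-103895167 (Serpina1c), chr12:103763755-103763835 (Serpina1d) and chr12:103947093-103947173 (Serpina1e), on the minus strand of GRCm38.
Serpina1a: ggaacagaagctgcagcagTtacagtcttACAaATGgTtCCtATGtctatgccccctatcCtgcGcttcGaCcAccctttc
Serpina1b: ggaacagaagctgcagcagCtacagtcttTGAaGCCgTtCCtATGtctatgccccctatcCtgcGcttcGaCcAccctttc
Serpina1c: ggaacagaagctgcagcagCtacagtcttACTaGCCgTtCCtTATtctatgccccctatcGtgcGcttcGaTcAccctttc
Serpina1d: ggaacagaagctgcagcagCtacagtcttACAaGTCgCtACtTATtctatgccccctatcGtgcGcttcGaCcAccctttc
Serpina1e: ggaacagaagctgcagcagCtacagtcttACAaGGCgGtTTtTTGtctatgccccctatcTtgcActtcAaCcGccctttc
Serpina1e stood farthest from the other copies in this window, at 85.2 to 87.7% identity with them, while the other 4 were 87.7 to 93.8% identical among themselves.

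The loops of the Serpina3 members differ in length as well. The windows cover the same stretch in exon 5 of 5, with capitals from the end of the hinge to the next strand, at chr12:104345269-104345352 (Serpina3k), chr12:104393769-104393858 (Serpina3m) and chr12:104413448-104413537 (Serpina3n) on the plus strand and chr12:104147307-104147387 (Serpina3c) on the minus strand of GRCm38.
Serpina3k: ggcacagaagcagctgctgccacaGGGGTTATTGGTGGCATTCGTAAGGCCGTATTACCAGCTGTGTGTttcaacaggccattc
Serpina3m: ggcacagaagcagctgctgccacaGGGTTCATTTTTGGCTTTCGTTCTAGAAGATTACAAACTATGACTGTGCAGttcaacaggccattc
Serpina3n: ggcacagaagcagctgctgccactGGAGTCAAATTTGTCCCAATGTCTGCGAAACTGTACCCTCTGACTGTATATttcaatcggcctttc
Serpina3c: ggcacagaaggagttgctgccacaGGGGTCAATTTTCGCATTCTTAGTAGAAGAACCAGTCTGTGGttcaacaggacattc
The capital stretch measured 45 bases in Serpina3k, 51 in Serpina3m and in Serpina3n, and 42 in Serpina3c.

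Promoters of 8 members were matched in the RefSeq table (GRCm38.p6), each 300 bases long, from 250 before to 50 after a start; Serpina3k and Serpina3m were not matched. Those of Serpina1b and Serpina1e are shown because these 2 copies moved in opposite directions with diet, and those of Serpina3n and Serpina3c because both genes were called higher under corticosterone. Capitals mark matches, on either strand, to TGTTCT (an arm of the GR palindrome), TTCNNNGAA (STAT), TGTTTAC (forkhead), TTGCNNAA (C/EBP) and GTTAAT (an arm of the HNF1 site). The windows are chr12:103738140-103738439 (Serpina1b, minus strand), chr12:103956848-103957147 (Serpina1e, minus strand), chr12:104406458-104406757 (Serpina3n, plus strand) and chr12:104153823-104154122 (Serpina3c, minus strand).
Serpina1b: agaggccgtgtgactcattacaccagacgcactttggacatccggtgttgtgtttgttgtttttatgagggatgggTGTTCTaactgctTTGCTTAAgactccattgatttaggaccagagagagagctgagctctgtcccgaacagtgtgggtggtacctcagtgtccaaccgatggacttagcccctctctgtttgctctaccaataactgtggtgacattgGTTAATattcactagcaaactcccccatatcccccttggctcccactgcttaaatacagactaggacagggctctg
Serpina1e: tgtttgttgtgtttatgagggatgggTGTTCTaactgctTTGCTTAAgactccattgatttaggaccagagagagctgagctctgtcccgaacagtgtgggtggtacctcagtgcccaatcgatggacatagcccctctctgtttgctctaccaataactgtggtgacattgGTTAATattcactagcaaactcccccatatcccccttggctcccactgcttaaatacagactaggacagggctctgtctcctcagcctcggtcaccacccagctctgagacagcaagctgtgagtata
Serpina3n: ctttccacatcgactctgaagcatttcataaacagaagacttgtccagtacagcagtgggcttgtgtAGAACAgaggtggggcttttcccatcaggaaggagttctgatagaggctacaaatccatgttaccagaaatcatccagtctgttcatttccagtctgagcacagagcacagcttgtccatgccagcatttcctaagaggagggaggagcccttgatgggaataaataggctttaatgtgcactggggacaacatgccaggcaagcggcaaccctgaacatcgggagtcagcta
Serpina3c: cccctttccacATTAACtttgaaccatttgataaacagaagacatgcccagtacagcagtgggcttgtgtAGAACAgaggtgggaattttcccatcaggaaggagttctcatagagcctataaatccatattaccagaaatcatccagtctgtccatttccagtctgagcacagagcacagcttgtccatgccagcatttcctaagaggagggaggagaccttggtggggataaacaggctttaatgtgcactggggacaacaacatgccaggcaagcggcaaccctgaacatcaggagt
The Serpina1b and Serpina1e windows were 98.4% identical over the 248 bases that aligned, and both held TGTTCT, TTGCTTAA and GTTAAT in this order: 224, 211 and 78 bases before the start in Serpina1e, and 174, 161 and 26 bases before it in Serpina1b. The Serpina3n and Serpina3c windows were 93.5% identical over 294 aligned bases, and each held TGTTCT on the opposite strand, 183 and 180 bases before the start. Of the 8 member promoters 7 held TGTTCT, 0 TTCNNNGAA, 0 TGTTTAC, 5 TTGCNNAA and 6 GTTAAT, where 19.0%, 8.30%, 3.65%, 10.8% and 7.10% of 32851 promoters of this length did. A match describes letters in these windows and nothing about binding, and the 5 Serpina1 promoters are copies that do not count separately.

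The diet experiment asked how caloric restriction changes the WT liver at ZT12. Of the 10 members 8 were called (edgeR quasi-likelihood test, Benjamini-Hochberg adjusted p under 0.05 over all genes tested), where 47.1% of 13062 genes were. Directions were mixed within each family: Serpina1c, Serpina1e, Serpina3k, Serpina3c and Serpina12 fell, and Serpina1b, Serpina1d and Serpina3m rose. The groups of 8 members did not overlap, as in 59% of all genes tested.

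Serpina1e changed most. It was at 2579.9, 1556 and 5786 CPM in the 3 ctrl. livers and at 40.2, 20.1 and 25.7 CPM in the 3 cal. res. livers. The ctrl. livers differed several-fold among themselves, and the lowest of them was far above the highest cal. res. liver. The log2 fold change was -6.85 ± 0.60 (SE, edgeR adjusted p = 0.000323), and the means (n = 3 and 3) differed 115-fold. Without ctrl. replicate 3, the highest ctrl. liver, the log2 fold change was -6.18 (log2, edgeR adjusted p = 0.000667), and between time-series WT livers at ZT12 it was -5.31 (log2, edgeR adjusted p = 0.000794).

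The other Serpina1 copies moved much less. Serpina1c was at 9227, 7593 and 9189 CPM on ctrl. and 5055, 4171 and 4522 CPM on cal. res., without overlap (-0.92 ± 0.11, SE, log2, edgeR adjusted p = 0.000875). Serpina1b was at 5620.4, 5639 and 5938 CPM on ctrl. and 7236, 6435 and 6801 CPM on cal. res. (0.25 ± 0.07, SE, log2, edgeR adjusted p = 0.03). Serpina1d was at 3407, 3295 and 3875 CPM and 4416, 3977 and 4271 CPM (0.26 ± 0.09, SE, log2, edgeR adjusted p = 0.047). The groups of these 2 genes did not overlap, but each call was lost in several fits that left out 1 library. That of Serpina1b was lost without ctrl. replicate 1 or 2 or cal. res. replicate 3 (edgeR adjusted p = 0.0607 to 0.089). That of Serpina1d was lost without any library other than ctrl. replicate 3 (edgeR adjusted p = 0.0566 to 0.147). Calls over all genes in such fits went from 6155 to between 4512 and 6471. Serpina1a overlapped between diets, at 4697, 4292 and 4809.9 CPM on ctrl. and 4364, 3553 and 3664 CPM on cal. res. (-0.26 ± 0.10, SE, log2, edgeR adjusted p = 0.0713).

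Summed over the 5 copies, the ctrl. livers had 25531, 22374 and 29597 CPM and the cal. res. livers 21111, 18156 and 19282 CPM. The part counted to Serpina1e was 10.1, 6.96 and 19.5% on ctrl. and 0.191, 0.111 and 0.133% on cal. res. The sum was lower on cal. res. without overlap, and its share from Serpina1e fell by a far larger factor than the sum did.

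The Serpina3 family split. Serpina3k, a kallikrein-binding serpin of the plasma, was at 10158, 9339 and 11677 CPM on ctrl. and 4918, 4477 and 4492 CPM on cal. res. (-1.17 ± 0.10, SE, log2, edgeR adjusted p = 0.000296). Its neighbour Serpina3m was at 219.9, 333 and 259 CPM on ctrl. and 660.3, 592 and 506 CPM on cal. res. (1.11 ± 0.17, SE, log2, edgeR adjusted p = 0.00197). Neither gene overlapped between the diets, and they moved in opposite directions. Between time-series WT livers at ZT12 the log2 fold change of Serpina3k was -0.66 (log2, edgeR adjusted p = 0.0268) and that of Serpina3m 1.14 (log2, edgeR adjusted p = 0.0262). Serpina3c was at 12.5, 14.4 and 16.2 CPM on ctrl. and 9.84, 8.47 and 8.49 CPM on cal. res. (-0.69 ± 0.12, SE, log2, edgeR adjusted p = 0.00352). Serpina3n, an inhibitor of granzyme B and an acute-phase gene, was at 383, 440.1 and 312 CPM on ctrl. and 496, 373 and 331 CPM on cal. res., with overlap (0.08 ± 0.18, SE, log2, edgeR adjusted p = 0.746). Serpina12 was at 117, 99.8 and 131 CPM on ctrl. and 24.2, 19.4 and 13.8 CPM on cal. res., a 6.06-fold lower mean (-2.60 ± 0.20, SE, log2, edgeR adjusted p = 0.00022). Between time-series WT livers at ZT12 its log2 fold change was -3.52 (log2, edgeR adjusted p = 0.00128).

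Of 7 other clade A serpins tested 4 were called, all lower, and the largest changes were in Serpina9 (-4.28 ± 0.48, SE, log2), Serpina7, which encodes thyroxine-binding globulin (-2.43 ± 0.18), and Serpina10, the inhibitor of activated factor X (-0.97 ± 0.10). Of 28 acute-phase genes 10 were called higher and 5 lower, with a median log2 fold change of 0.16 (all genes tested: 0.00); the largest were Saa1 (-2.23 ± 0.36, SE, log2), Steap4 (-1.68 ± 0.13) and Saa4 (-1.63 ± 0.14), all lower. Endothelial markers summed to 119 to 156 CPM on ctrl. and 208 to 242 CPM on cal. res., with 5 of 6 called higher, and 6 stellate markers to 195 to 233 and 289 to 321 CPM, with 3 of 6 called higher. The 7 hepatocyte markers summed to 87402 to 92410.5 and 157455 to 162037 CPM, with 3 of 7 called higher, and of 4 cholangiocyte markers tested 2 were called higher. Neutrophil markers summed to 0.324 to 0.679 CPM on ctrl. and 0.171 to 0.286 CPM on cal. res., and adipocyte markers to 0.158 to 0.287 and at most 0.0569 CPM. The part of these in the members' values was not tested. When time-series WT livers at ZT12 took the place of the diet experiment, the sign turned for Serpina1d (-0.13, log2, edgeR adjusted p = 0.584) and Serpina3c (0.39, log2, edgeR adjusted p = 0.79). There Serpina1b was not called, at 0.17 (log2, edgeR adjusted p = 0.11), and Serpina3n was called higher, at 0.47 (log2, edgeR adjusted p = 0.00202).

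**Figure D1:**
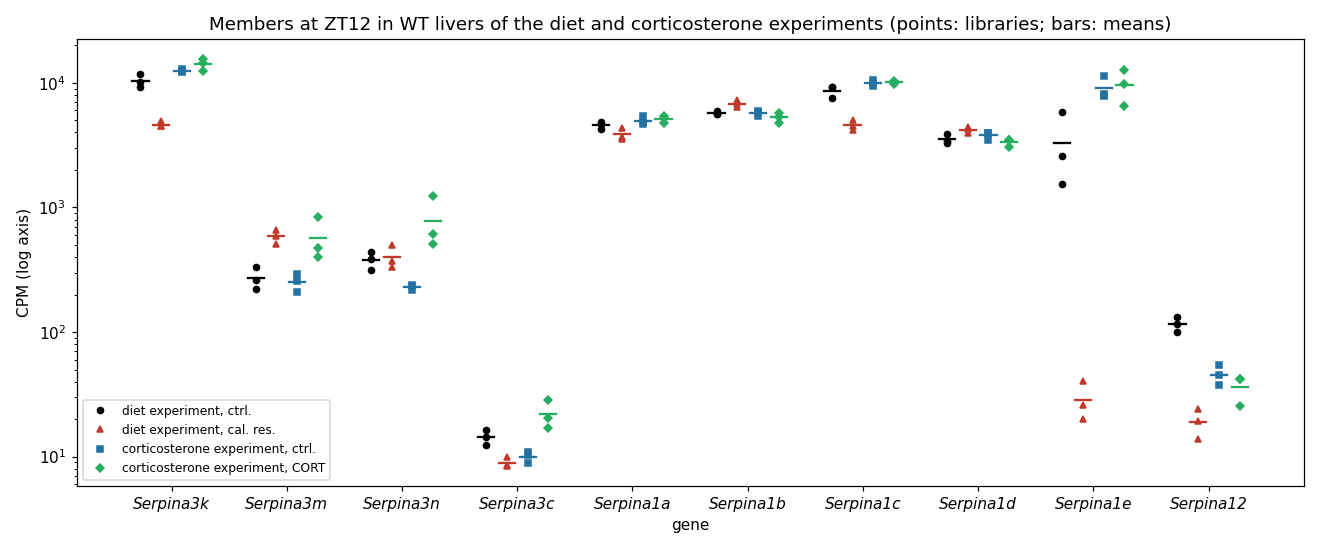
CPM of the 10 members (log axis) in the WT livers of the diet and corticosterone experiments at ZT12; points are libraries and bars are means of 3. Serpina1e lies at 1556 to 5786 CPM on ctrl. and at 20.1 to 40.2 CPM on cal. res., while its corticosterone groups overlap.

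The corticosterone experiment asked which genes the hormone moves in WT mice fed at night. Called were 3 of 10 members, all higher, where 8.11% of 11523 genes were called: Serpina3n, Serpina3m and Serpina3c. Serpina3n was at 238, 218 and 234 CPM in ctrl. and 504, 1239 and 609 CPM in CORT livers (1.77 ± 0.33, SE, log2, edgeR adjusted p = 0.0216). Serpina3m was at 258, 292 and 210.5 CPM in ctrl. and 402, 832 and 473 CPM in CORT livers (1.17 ± 0.28, SE, log2, edgeR adjusted p = 0.0484). In both genes the groups did not overlap (as in 32.8% of all genes tested), and CORT replicate 2 was the highest library. Serpina3c behaved alike at a low level, with 10.2, 10.8 and 8.89 CPM in ctrl. and 16.8, 28.5 and 20.5 CPM in CORT livers (1.14 ± 0.21, SE, log2, edgeR adjusted p = 0.0212). All 3 calls were lost without any 1 of the 3 ctrl. libraries, and those of Serpina3m and Serpina3c also without CORT replicate 3 (adjusted p = 0.08 to 0.144 for Serpina3m, 0.0749 to 0.0972 for Serpina3n and 0.0536 to 0.0785 for Serpina3c). Calls over all genes went from 935 to 421, 206 and 438 without ctrl. replicate 1, 2 or 3 and to 395 without CORT replicate 3.

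The Serpina1 copies, Serpina3k and Serpina12 overlapped between ctrl. and CORT livers and were not called, with log2 fold changes from -0.33 ± 0.21 (SE, Serpina12) to 0.17 ± 0.11 (SE, Serpina3k). Serpina1e was at 8133, 7859 and 11375 CPM in ctrl. and 12676, 6518 and 9805 CPM in CORT livers (0.08 ± 0.26, SE, log2, edgeR adjusted p = 0.885). The 5 copies summed to 32962, 30899 and 37082 CPM in ctrl. and 37304, 30952 and 32283 CPM in CORT livers. Of 27 acute-phase genes tested 21 were called, all higher, with a median log2 fold change of 1.33 (all genes tested: -0.01). The largest rises were in the metallothioneins Mt2 (8.86 ± 0.52, SE, log2) and Mt1 (7.19 ± 0.50) and in Lcn2, a lipocalin that binds siderophores (6.97 ± 0.42). Of 24 liver transcription factors and their signals 5 were called higher and 5 lower, with a median log2 fold change of 0.06, and the largest changes were rises of Cebpd (2.67 ± 0.20, SE, log2), Cebpb (2.04 ± 0.16) and Il6ra (1.82 ± 0.36). Of 8 other clade A serpins Serpina11 alone was called (0.72 ± 0.11, SE, log2). The 5 neutrophil markers, 1 of them at 0, summed to 0.0719 to 0.684 CPM in ctrl. and 1.57 to 2.43 CPM in CORT livers. The 8 Kupffer and myeloid markers summed to 102 to 137 CPM in ctrl. and 141 to 198 CPM in CORT livers (1 called, higher), and the 6 endothelial markers to 95.3 to 120.0 and 78.3 to 93.5 CPM (1 called, lower). None of these 3 sums overlapped between the groups, and their part in the members' values was not tested.

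Livers of GRLKO and WT mice were then compared at each time on caloric restriction. At ZT12, when the meal is given, 6 of 10 members were called, all lower in GRLKO, where 15.3% of 11759 genes were called: Serpina3k, Serpina3m, Serpina3n, Serpina3c, Serpina1e and Serpina12. The counts were 0 at ZT0 (background 0.502%), 1 at ZT4 (0.69%), 2 at ZT8 (2.55%), 1 at ZT16 (4.54%) and 1 at ZT20 (1.47%). Serpina3k accounted for the call at ZT4 and ZT16 and, with Serpina12, for those at ZT8.

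Serpina3k was lower in GRLKO livers at all 6 times without overlap. At ZT12 it was at 6198, 10750.2 and 7445 CPM in WT and 691, 745 and 399 CPM in GRLKO livers. The lowest WT liver was several times the highest GRLKO liver, and the means differed 13.3-fold (-3.74 ± 0.30, SE, log2, edgeR adjusted p = 0.00072; -3.81 and adjusted p = 0.00298 without the WT library that carried pancreas markers). Earlier in the light phase the gap was already wide. At ZT4 the gene was at 3497, 4495 and 7519 CPM in WT and 708, 578 and 915 CPM in GRLKO livers (-2.82 ± 0.31, SE, log2, edgeR adjusted p = 0.0213), a call lost without WT replicate 2 or any 1 GRLKO library (adjusted p = 0.0527 to 0.11). At ZT8 it was at 4026, 3162 and 4661 CPM in WT and 544, 619 and 650.3 CPM in GRLKO livers (-2.71 ± 0.17, SE, log2, edgeR adjusted p = 0.00109). The gap persisted after the meal at ZT16, with 7286, 5539.8 and 8040.4 CPM in WT and 949, 1290.1 and 620.2 CPM in GRLKO livers (-2.87 ± 0.27, SE, log2, edgeR adjusted p = 0.00206). The calls at ZT8, ZT12 and ZT16 held under all 11 alternatives tried. Endothelial markers summed to 152 to 193 CPM in WT and 206 to 243 CPM in GRLKO livers at ZT4 and to 159 to 169.6 and 199.6 to 221 CPM at ZT8. Hepatocyte markers summed to 115346 to 141192 and 110179 to 115112 CPM at ZT8 and to 136245 to 143497 and 104106 to 132406 CPM at ZT16. Neutrophil markers summed to 0.213 to 0.822 CPM in WT and 0.867 to 1.06 CPM in GRLKO livers at ZT16. None of these sums overlapped between genotypes, and their part in the values of Serpina3k was not tested.

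At ZT20 and ZT0 Serpina3k was not called. WT livers had 13519, 11134 and 10963 CPM and GRLKO livers 2475, 2257 and 6006 CPM at ZT20 (-1.70 ± 0.38, SE, log2, edgeR adjusted p = 0.0823). WT livers had 8010.0, 8835 and 9460.5 CPM and GRLKO livers 4175, 1335 and 1498 CPM at ZT0 (-1.90 ± 0.43, SE, log2, edgeR adjusted p = 0.114). In each of these GRLKO groups 1 library was far above its partners. At ZT0 hepatocyte markers summed to 117865 to 120818 CPM in WT and 105240.0 to 111958 CPM in GRLKO livers and neutrophil markers to 0.805 to 1.29 and 1.66 to 3.52 CPM, neither with overlap, and their part was not tested. Without GRLKO replicate 1 at ZT0 the log2 fold change was -2.62 (edgeR adjusted p = 0.000692), and the number of member calls over the 6 times went from 11 to 19, while the calls over all genes at ZT0 went from 61 to 103. Over all genes tested, 20.3 to 36.8% had no overlap between genotypes at a time point on cal. res. and 7.35 to 22.3% on ctrl.

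Serpina3c and Serpina12 showed wide gaps at low levels. Serpina3c at ZT12 was at 83.4, 20.4 and 108 CPM in WT and 11.2, 2.32 and 5.42 CPM in GRLKO livers (-3.49 ± 0.72, SE, log2, edgeR adjusted p = 0.0193). The groups did not overlap, but the WT livers spread several-fold, and the call was lost without WT replicate 3, the library with pancreas markers, at -3.06 (edgeR adjusted p = 0.0538), and without GRLKO replicate 2 or 3. At ZT20 Serpina3c was at 14.8, 10.5 and 8.64 CPM in WT and 2.55, 3.13 and 3.85 CPM in GRLKO livers (-1.81 ± 0.25, SE, log2, edgeR adjusted p = 0.0234), a call lost without any 1 WT library or GRLKO replicate 2 (adjusted p = 0.0734 to 0.0922). At ZT0 alone its log2 fold change lay above 0, with 6.13, 5.58 and 7.60 CPM in WT and 2.69, 20.8 and 22.1 CPM in GRLKO livers (1.24 ± 0.65, SE, log2, edgeR adjusted p = 0.476). Serpina12 at ZT8 was at 12.8, 13.1 and 10.5 CPM in WT and 2.95, 2.60 and 2.26 CPM in GRLKO livers (-2.21 ± 0.16, SE, log2, edgeR adjusted p = 0.00161). Serpina12 at ZT12 was at 2.59, 10.7 and 2.82 CPM in WT and 0.577, 0.904 and 0.924 CPM in GRLKO livers (-2.74 ± 0.63, SE, log2, edgeR adjusted p = 0.0271). Neither time showed overlap, and the ZT12 call was lost without any 1 GRLKO library (adjusted p = 0.0808 to 0.0885) and kept without WT replicate 3, at -3.06 (log2, edgeR adjusted p = 0.0334).

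Serpina3m and Serpina3n were called at ZT12 only. Serpina3m was at 602, 650.4 and 811 CPM in WT and 291, 430.2 and 284 CPM in GRLKO livers (-1.05 ± 0.19, SE, log2, edgeR adjusted p = 0.0119). The part of reads shared with Serpina3k in these values was not tested. Serpina3n was at 404, 408 and 445 CPM in WT and 299.7, 235 and 280.5 CPM in GRLKO livers (-0.63 ± 0.11, SE, log2, edgeR adjusted p = 0.0101). Without WT replicate 3, the library with pancreas markers, the values were -0.92 (log2, edgeR adjusted p = 0.0411) for Serpina3m and -0.60 (log2, edgeR adjusted p = 0.0411) for Serpina3n. Both were without overlap at ZT12, while at ZT4 both overlapped, at 0.14 ± 0.10 and 0.05 ± 0.14 (SE, log2). Of the 6 times, Serpina3m was without overlap at 5 and Serpina3n at 3, where 20.3 to 36.8% of all genes were at a time point. The edgeR F test of genotype by time of day on cal. res. called 2 members, Serpina3m (adjusted p = 0.00875) and Serpina3c (adjusted p = 0.0145), where 5.34% of genes were called. Both were lost without replicate number 3, Serpina3m also without 1 and Serpina3c also without 2 (adjusted p = 0.16 to 0.4 and 0.374 to 0.467). Calls over all genes went from 696 to 296, 136 and 89 without number 1, 2 or 3. Without the library with pancreas markers alone both were called (adjusted p = 0.0362 and 0.0314).

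Among the Serpina1 copies on cal. res. the log2 fold change of GRLKO over WT was below 0 at all 6 times for each of the 5 genes, with 1 call, Serpina1e at ZT12. Serpina1e was then at 119, 468 and 118 CPM in WT and 57.0, 14.0 and 42.9 CPM in GRLKO livers (-2.64 ± 0.70, SE, log2, edgeR adjusted p = 0.0437), a call lost without WT replicate 2 or 3 or any 1 GRLKO library (adjusted p = 0.0528 to 0.121). Without WT replicate 3, the library with pancreas markers, it was -2.97 (log2, edgeR adjusted p = 0.0528). At the same time Serpina1c stood at -1.10 ± 0.32 (SE, log2, edgeR adjusted p = 0.061), Serpina1a at -0.77 ± 0.23 (adjusted p = 0.0646), Serpina1d at -0.55 ± 0.34 (adjusted p = 0.316) and Serpina1b at -0.49 ± 0.24 (adjusted p = 0.206). GRLKO replicate 2 was the highest of its group in these 4 copies, for example 7362 CPM of Serpina1b beside 4123 and 3812 CPM, and the lowest in Serpina1e.

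At ZT0 the cal. res. GRLKO group was split in several members. Serpina1e was at 2432, 77.0 and 72.4 CPM in GRLKO and 667, 802 and 2122 CPM in WT livers. Serpina1c was at 8790.1, 3463 and 3191 CPM in GRLKO and 7848, 8291 and 10162 CPM in WT livers. In both genes GRLKO replicate 1 lay within the WT range, or above it, and the other 2 GRLKO livers lay far below. Serpina3c ran the other way, with replicate 1 the lowest of the 3. Nothing in the labels sets this library apart.

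Of 7 other clade A serpins tested at ZT12 on cal. res. 2 were called, and both were higher in GRLKO. Serpina6, which encodes corticosteroid-binding globulin, stood at 2.12 ± 0.17 (SE, log2, edgeR adjusted p = 0.000656), and Serpina7 at 1.47 ± 0.27 (adjusted p = 0.0129). Of 28 acute-phase genes 11 were called lower and 1 higher, with a median log2 fold change of -0.30, among them Mt2 (-4.11 ± 0.43, SE, log2), Mt1 (-3.18 ± 0.29) and Lcn2 (-2.15 ± 0.48). In the same contrast Cebpa was higher (1.33 ± 0.10, SE, log2) and Il6ra lower (-1.25 ± 0.14). Without WT replicate 3, the library with pancreas markers, Serpina6 stood at 2.32 (log2, edgeR adjusted p = 0.000972), Serpina7 at 1.61 (log2, edgeR adjusted p = 0.0341), Mt2 at -4.04 (log2, edgeR adjusted p = 0.00766), Mt1 at -2.94 (log2, edgeR adjusted p = 0.00334), Cebpa at 1.40 (log2, edgeR adjusted p = 0.00216) and Il6ra at -1.23 (log2, edgeR adjusted p = 0.0102), while Lcn2 was not called (-1.72 (log2, edgeR adjusted p = 0.0751)), and 8 acute-phase genes were called lower and 1 higher. Other cell types' markers moved too: 8 Kupffer and myeloid markers summed to 58.1 to 93.6 CPM in WT and 132 to 169 CPM in GRLKO livers, 7 of 8 called higher, and 7 hepatocyte markers to 164271 to 171864 and 119286 to 136131 CPM, 5 of 7 called lower. The 6 endothelial markers summed to 161 to 192 CPM in WT and 212 to 238 CPM in GRLKO livers, with 2 of 6 called higher. The 5 cholangiocyte markers summed to 26.4 to 31.2 and 31.5 to 32.5 CPM. Without WT replicate 3 the calls were 4 of 8 Kupffer and myeloid and 4 of 6 endothelial markers higher and 4 of 7 hepatocyte markers lower. The part of these cell types in the members' values was not tested.

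**Figure D2:**
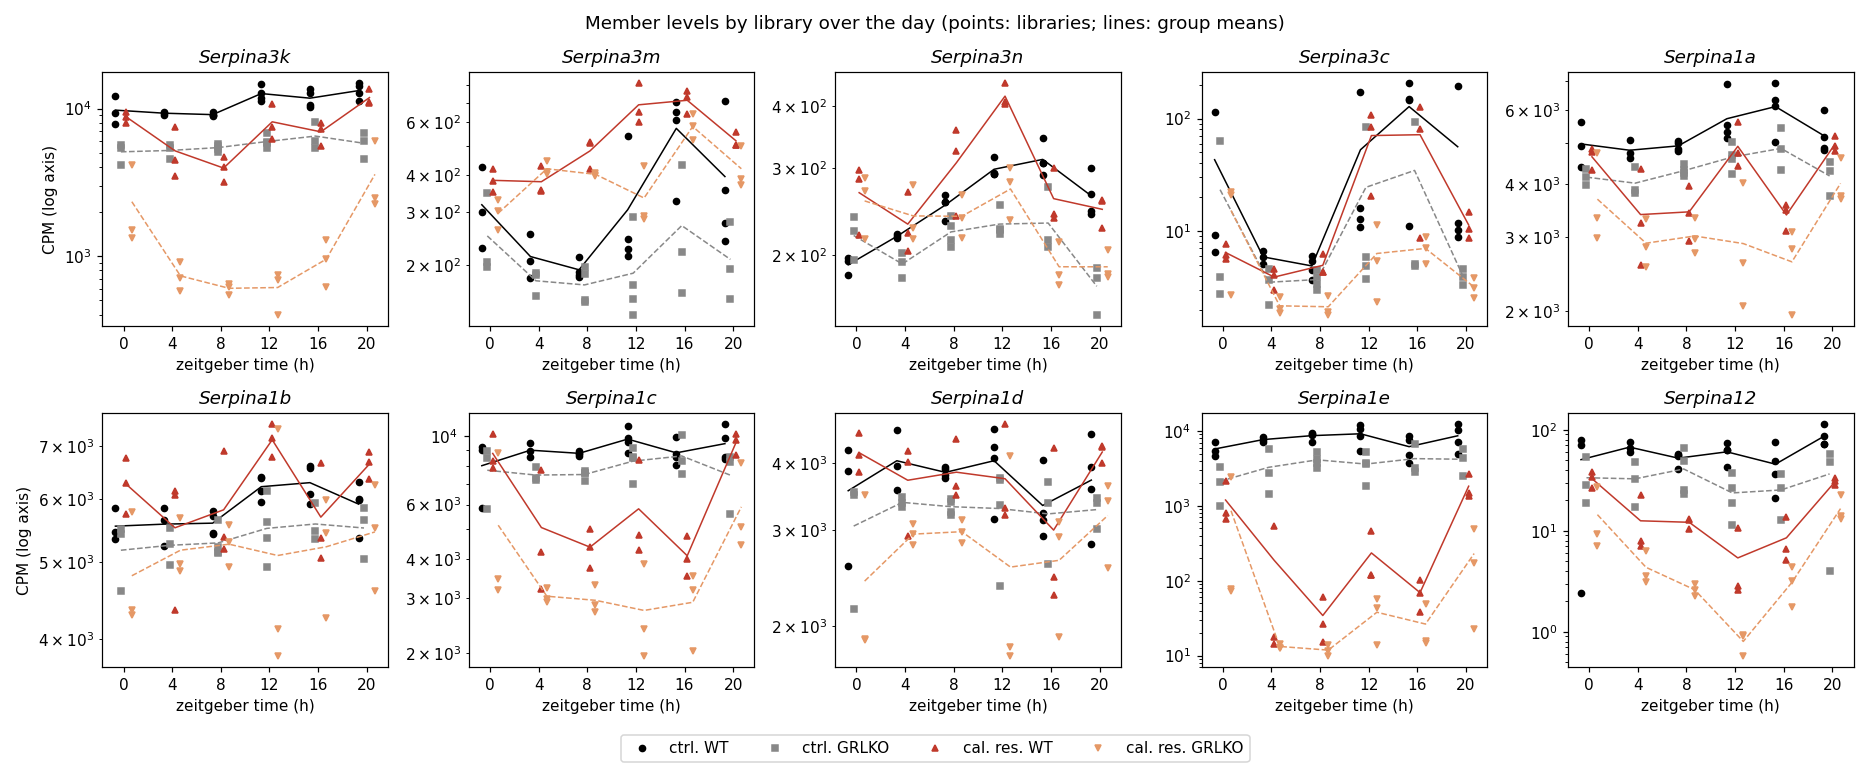
CPM of each member (log axis) against zeitgeber time in the 78 time-series libraries; points are libraries, lines join group means, and diet and genotype are marked by colour and line. The cal. res. GRLKO livers lie below the cal. res. WT livers in Serpina3k at all 6 times, and Serpina1e on cal. res. spans 9.94 to 2667 CPM.

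The same comparison was made on the control diet. The counts of members called were 0 of 10 at ZT0 (background 0.536%), 1 at ZT4 (0.195%), 4 at ZT8 (1.43%), 2 at ZT12 (2.08%), 1 at ZT16 (1.98%) and 1 at ZT20 (0.42%). Serpina3k was in each of these counts above 0.

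Serpina3k was lower in ctrl. GRLKO livers at all 6 times without overlap. At ZT12 it was at 11316, 12771, 11819 and 14658 CPM in WT and 5801, 5377, 5939 and 6784 CPM in GRLKO livers, 2.12-fold lower in the means (-1.09 ± 0.11, SE, log2, edgeR adjusted p = 0.00146). At ZT8 it was at 9004, 8875, 9058 and 9453 CPM in WT and 5044, 5599, 5761 and 5345 CPM in GRLKO livers (-0.75 ± 0.05, SE, log2, edgeR adjusted p = 0.000513). These 2 calls held under all 13 alternatives tried. At ZT4, ZT16 and ZT20 the log2 fold changes were -0.84 ± 0.10, -0.86 ± 0.17 and -1.18 ± 0.18 (SE, edgeR adjusted p = 0.0318, 0.0466 and 0.0444), and each of these calls was lost without any 1 WT library and without 2 of the 3 GRLKO libraries (replicates 1 and 2 at ZT4, 1 and 3 at ZT16, 2 and 3 at ZT20; adjusted p = 0.0584 to 0.143). Without the ZT16 WT library that carried pancreas markers the value was -0.81 (edgeR adjusted p = 0.127). Hepatocyte markers summed to 97599 to 100163 CPM in WT and 75963 to 83622 CPM in GRLKO livers at ZT4 and to 87405 to 97056 and 74108 to 86372 CPM at ZT16, without overlap, and overlapped at the other times. Cholangiocyte markers at ZT4 (39.4 to 46.1 CPM in WT and 28.3 to 36.0 CPM in GRLKO) and endothelial markers at ZT16 (102 to 108 and 78.4 to 101 CPM) did not overlap either. The part of these in the values of Serpina3k was not tested. At ZT0 Serpina3k was at 12098, 9352 and 7827 CPM in WT and 5436, 5692 and 4138 CPM in GRLKO livers (-0.94 ± 0.20, SE, log2, edgeR adjusted p = 0.115).

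Serpina1e on ctrl. was lower in GRLKO at all 6 times, by log2 fold changes of -1.43 to -0.53, and called at ZT8. It was then at 8906, 7082, 9484 and 9184 CPM in WT and 3774, 4200.0, 5293 and 3199.8 CPM in GRLKO livers, without overlap (-1.08 ± 0.15, SE, log2, edgeR adjusted p = 0.0107). The call was kept without any 1 library and lost in a joint fit of all ctrl. libraries (adjusted p = 0.333). Serpina1c and Serpina1d were called at ZT8 with differences of -0.23 ± 0.04 and -0.21 ± 0.04 (SE, log2, edgeR adjusted p = 0.0393 and 0.0472), calls that were lost without any 1 of the 8 libraries (adjusted p = 0.0649 to 0.112 and 0.0635 to 0.15). Neither overlapped between genotypes, with WT livers at 8602 to 8923 CPM and GRLKO livers at 7170.4 to 7679 CPM of Serpina1c. Serpina3n at ZT12 was at 291, 292, 316 and 293 CPM in WT and 221, 252, 225 and 226 CPM in GRLKO livers (-0.38 ± 0.07, SE, log2, edgeR adjusted p = 0.0236); the call was lost without WT replicate 1, 2 or 3 or GRLKO replicate 1, 3 or 4 (adjusted p = 0.0508 to 0.0796). At ZT0 its log2 fold change lay above 0 (0.20 ± 0.10, SE, log2, edgeR adjusted p = 0.405), and the F test of genotype by time on ctrl. called Serpina3n alone (edgeR adjusted p = 0.00844; 0.6% of genes), lost without replicate number 1, 2 or 3 (adjusted p = 0.0521 to 0.427, with calls over all genes from 77 to 15, 5 and 37) and kept without the ZT16 library with pancreas markers (adjusted p = 0.00981). Serpina12 had log2 fold changes of -1.36 to -0.36 over the 6 times and was not called; at ZT12 it was at 62.7, 62.7, 43.3 and 73.3 CPM in WT and 19.0, 11.4, 26.8 and 37.6 CPM in GRLKO livers, without overlap. A ctrl. WT library at ZT0, replicate 3, had 2.42 CPM of Serpina12 beside 70.9 and 78.6 CPM.

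**Figure D3:**
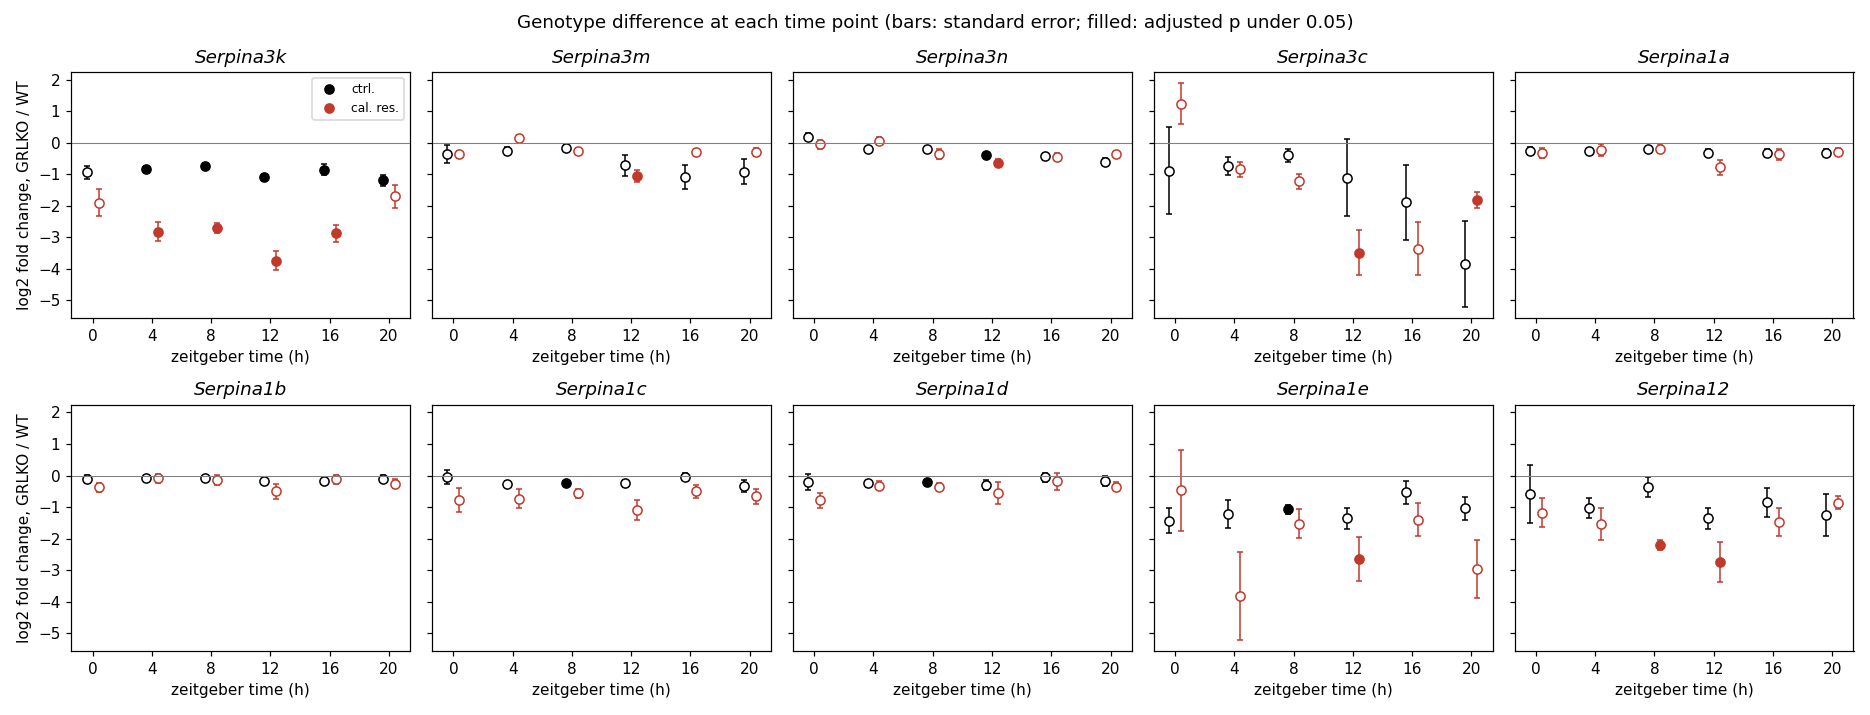
Log2 fold change of GRLKO over WT for each member at the 6 zeitgeber times on ctrl. and cal. res.; bars are standard errors and filled points passed an adjusted p of 0.05. Serpina3k runs from -1.18 to -0.75 on ctrl. and from -3.74 to -1.70 on cal. res.

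Whether the genotype difference changed with diet was tested as an interaction at each time. Of the members only Serpina3k was called, at ZT8 (0.081% of genes called), ZT12 (1.01%) and ZT16 (0.234%); at ZT0, ZT4 and ZT20 0 members and 0% of genes were called by edgeR, with unadjusted p under 0.05 in 2 members at ZT4 and 0 at ZT0 and ZT20. The interaction of Serpina3k was -1.96 ± 0.16 at ZT8 (SE, log2, edgeR adjusted p = 0.000132). It was -2.64 ± 0.30 at ZT12 (SE, log2, edgeR adjusted p = 0.00287) and -2.02 ± 0.33 at ZT16 (SE, log2, edgeR adjusted p = 0.0289). At these times the fall in GRLKO was larger in the cal. res. than in the ctrl. libraries, where diet and library set cannot be told apart. At ZT4 the interaction was -1.98 ± 0.35 (SE, log2, edgeR adjusted p = 0.337), at ZT0 -0.96 ± 0.51 and at ZT20 -0.53 ± 0.43. Without the 2 libraries with pancreas markers the values were -2.70 at ZT12 (edgeR adjusted p = 0.0068) and -2.06 at ZT16 (adjusted p = 0.057). The ZT12 call was lost without replicate number 3 (adjusted p = 0.0647) and the ZT16 call without any 1 of the 4 numbers (adjusted p = 0.0524 to 0.233). Calls over all genes went from 123 to 2 at ZT12 without number 3, and from 29 to between 6 and 20 at ZT16 without 1 number. Among 8 other clade A serpins at ZT12 Serpina6 was called, with an interaction of 1.45 ± 0.21 (SE, log2, edgeR adjusted p = 0.00671), opposite in sign to that of Serpina3k, and 1.65 (log2, edgeR adjusted p = 0.00484) without the cal. res. library with pancreas markers.

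Rhythms over the day were called by JTK_CYCLE at a period of 24 h (adjusted p under 0.05 and an amplitude above 0.1 on a variance-stabilised log2 scale). In cal. res. WT livers 5 of 10 members were called (20.7% of genes): Serpina3k and Serpina1e with a peak at ZT20, Serpina3m and Serpina3c at ZT16, and Serpina12 at ZT0. In cal. res. GRLKO livers 3 were called (19%), Serpina3k and Serpina1e at ZT20 and Serpina12 at ZT0. In ctrl. WT livers 4 were called (24.1%), Serpina3m, Serpina3n, Serpina3c and Serpina1a, all at ZT16, and in ctrl. GRLKO livers 0 (20.9%). A call in 1 group and not in another was tested as a difference only by the F test of genotype by time given above. Leaving out a replicate number took the 12 member calls to between 2 and 11, and the calls over all genes, summed over the 4 groups, from 15916 to between 4285 and 14171. On cal. res. the calls of Serpina3k, Serpina1e and Serpina12 in both genotypes and of Serpina3m in WT livers were lost without any 1 replicate number, and that of Serpina3c without number 2 or 3 (JTK adjusted p = 0.0531 to 0.419 over these losses). On ctrl. the calls of Serpina3m and Serpina1a were each lost without 3 of the 4 numbers and that of Serpina3c without number 1 (Serpina1a in part through its amplitude). Without the 2 libraries with pancreas markers the 12 calls were kept, and Serpina1b was called as well in ctrl. WT livers.

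Serpina1e had the widest range of the members over the day on cal. res. In WT livers it was at 26.8, 15.4 and 60.8 CPM at ZT8 and 2667, 1480.3 and 1344 CPM at ZT20, and its group means spanned 53.3-fold (JTK adjusted p = 0.0435). In GRLKO livers it was at 9.94, 11.5 and 14.1 CPM at ZT8 and 172, 22.9 and 497 CPM at ZT20 (JTK adjusted p = 0.0178). In both genotypes these times did not overlap. A WT library at ZT4, replicate 3, was at 531 CPM beside 17.8 and 14.3 CPM, and it was also the highest of its group in Serpina1c, Serpina3k and Serpina12.

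Serpina12 on cal. res. was at 30.8, 28.1 and 33.0 CPM at ZT20 and 2.59, 10.7 and 2.82 CPM at ZT12 in WT livers (JTK adjusted p = 0.0162). In GRLKO livers it was at 13.0, 14.1 and 22.6 CPM at ZT20 and 0.577, 0.904 and 0.924 CPM at ZT12 (JTK adjusted p = 0.00237). The lowest group mean came at ZT12 in both genotypes. ZT12 and ZT20 did not overlap, while in WT livers ZT12 overlapped ZT4, ZT8 and ZT16. Serpina3k on cal. res. ran from 3949.7 ± 753 CPM (SD, n = 3) at ZT8 to 11872 ± 1429 CPM at ZT20 in WT livers (JTK adjusted p = 0.00954) and from 604 ± 54.8 to 3579.5 ± 2105 CPM in GRLKO livers (JTK adjusted p = 0.00608). Its group means on ctrl. spanned 1.45-fold in WT and 1.28-fold in GRLKO livers, without a call (JTK adjusted p = 0.112 and 0.258).

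Serpina3n had the firmest rhythm of the members on ctrl. In WT livers it was at 194, 182 and 197 CPM at ZT0 and 345, 307, 307 and 289.7 CPM at ZT16 (JTK adjusted p = 0.00197), a call that held under all 8 alternatives. In GRLKO livers it was at 195, 223 and 238 CPM at ZT0 and 207, 215 and 274 CPM at ZT16, with overlap (JTK adjusted p = 0.337). Just inside and just outside the amplitude threshold in ctrl. WT livers were Serpina1a (amplitude 0.106) and Serpina1b (amplitude 0.0934).

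**Figure D4:**
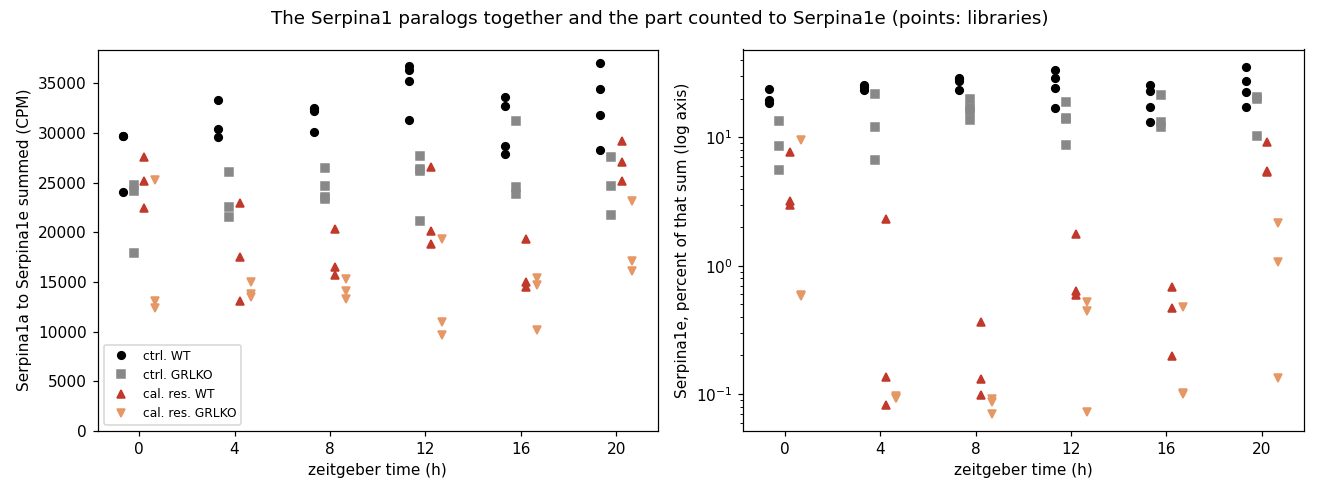
Serpina1a to Serpina1e summed (CPM) and the part of that sum counted to Serpina1e (percent, log axis) by zeitgeber time in the time-series libraries; points are libraries, with diet and genotype by colour. The part counted to Serpina1e is 13.2 to 35.5% in ctrl. WT and 0.0815 to 9.15% in cal. res. WT livers, which come from separately normalized tables.

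The sum of the 5 Serpina1 copies had a median of 32026 CPM (24082 to 37032, 22 libraries) in ctrl. WT and 24592 CPM (17894 to 31179, 20 libraries) in ctrl. GRLKO livers. On cal. res., in a table normalized separately, it had a median of 20206 CPM (13079.9 to 29139.9, 18 libraries) in WT and 14398 CPM (9631 to 25235, 18 libraries) in GRLKO livers. The genotypes overlapped on both diets when all times were pooled. Within a time, the sum was lower in GRLKO without overlap on ctrl. at ZT4, ZT8, ZT12 and ZT20 and on cal. res. at ZT8 and ZT20. It overlapped at the other times. At ZT8 on ctrl. it was 30093 to 32513 CPM in WT and 23373 to 26451 CPM in GRLKO livers. At ZT12 on cal. res. it was 18791 to 26608 and 9631 to 19368 CPM. The part of the sum counted to Serpina1e, which is a ratio within a library, had medians of 24.0% and 13.8% in ctrl. WT and GRLKO livers and 0.658% and 0.118% on cal. res. All 10 members together took 1.03 to 5.17% of a library's counts over the 90 libraries.

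Serpina3c was uneven between time-series libraries of the same group, with values above 50 CPM or at most 22.1 CPM and none between in the 78 libraries. In ctrl. WT livers 6 of 22 libraries had 113 to 205 CPM and the others 3.68 to 16.2 CPM. In ctrl. GRLKO livers 3 of 20 had 63.3 to 93.7 CPM and the others at most 5.86 CPM. In cal. res. WT livers 4 of 18 had 80.7 to 126 CPM, and in cal. res. GRLKO livers 0 of 18 did. On ctrl. these libraries were at ZT0, ZT12, ZT16 and ZT20, and on cal. res. at ZT12 and ZT16. The labels hold no term that separates them from the other libraries of their groups. The rhythm calls, the F test on cal. res. and the ZT12 genotype call of Serpina3c include such libraries, and their part was not tested.

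In every ctrl. group that held both kinds of library, those high in Serpina3c were also higher in Serpina3m and lower in Serpina1d than the others. In ctrl. WT livers at ZT12, replicate 3 had 171 CPM of Serpina3c beside 10.8, 12.9 and 16.2 CPM. The same library had 540.2 CPM of Serpina3m beside 226, 243 and 214 CPM and 3154 CPM of Serpina1d beside 4617, 4279.7 and 4089 CPM. It was thus the highest of its group in the former and the lowest in the latter. In ctrl. GRLKO livers at ZT12, replicate 2 had 83.4 CPM of Serpina3c beside 4.88, 3.75 and 5.86 CPM, 289 CPM of Serpina3m beside 136, 153 and 172 CPM and 2367 CPM of Serpina1d beside 3343, 3746 and 3718 CPM. In ctrl. WT livers at ZT16, replicates 1 to 4 had 147, 10.96, 205 and 148 CPM of Serpina3c and 649, 327, 703 and 614 CPM of Serpina3m, and the low one, replicate 2, was the library with pancreas markers. On cal. res. the order held for Serpina1d but not throughout for Serpina3m. In cal. res. WT livers at ZT12, replicates 1 to 3 had 83.4, 20.4 and 108 CPM of Serpina3c, 602, 650.4 and 811 CPM of Serpina3m and 3199, 4707 and 3307 CPM of Serpina1d. In cal. res. WT livers at ZT16 they had 8.64, 80.7 and 126 CPM of Serpina3c, 641, 729.8 and 766 CPM of Serpina3m and 4265, 2467 and 2284 CPM of Serpina1d. At ZT12 replicate 1 was high in Serpina3c and the lowest in Serpina3m. The genotype difference of Serpina3c on ctrl. was called at none of the 6 times (edgeR adjusted p of 0.343 to 0.804), with an unadjusted p under 0.05 at 2 of them.

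**Figure D5:**
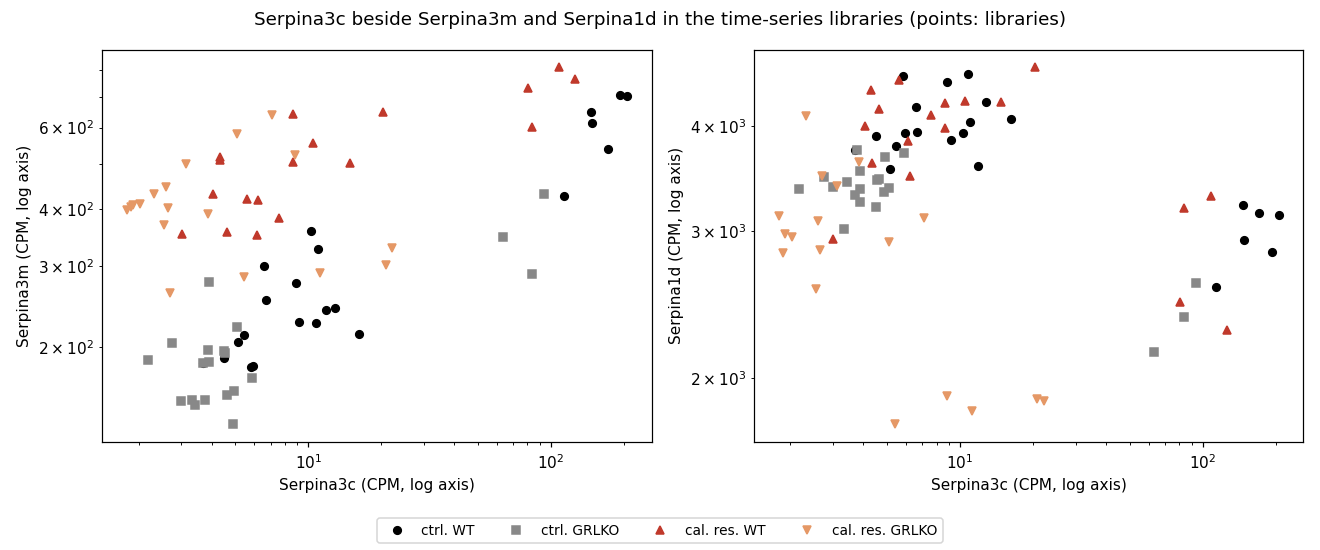
Serpina3c (CPM, log axis) beside Serpina3m and Serpina1d in the 78 time-series libraries; points are libraries, with diet and genotype by colour and shape. The ctrl. WT ZT12 replicate 3, at 171 CPM of Serpina3c, has 540.2 CPM of Serpina3m and 3154 CPM of Serpina1d.

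The genes most like each member, the other 9 members left out, were taken from 8873 genes by the Pearson correlation of group mean log2 CPM over the 24 time-series groups, centred within each diet; groups of the same time or genotype are not independent of each other, and the values are a description. Between members the correlation was 0.915 for Serpina1c and Serpina1e, 0.881 for Serpina1a and Serpina1c, 0.875 for Serpina3k and Serpina1c and 0.853 for Serpina1c and Serpina12. Of the genes outside the members, Serpina1c was most like C8b (r = 0.957), C8a (0.932) and Hsd3b5 (0.927), where C8a and C8b encode chains of complement component 8. Serpina1a and Serpina1e were both most like Mup20 (0.928 and 0.913), which encodes a major urinary protein. Serpina3k was most like Urad (0.912), C8b (0.897) and the acute-phase gene Lrg1 (0.895), and Serpina12 like C8b (0.862), C6 (0.85) and C4bp (0.84), 3 genes of the complement system. Serpina3c was most like Asl (0.875), an enzyme of the urea cycle, and Serpina11 (0.864). Serpina3m was most like Tcim (0.883), Serpina3n like Gfra1 (0.885), Serpina1b like F9 (0.847), which encodes coagulation factor IX, and Serpina1d like Gulo (0.815).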

How the data were processed

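Liver RNA of 90 libraries had been prepared, per the labels, with a TruSeq kit that does not mark strand, while the study's methods also cite a stranded protocol, so whether reads kept their strand is unsure. Per the labels, the authors quality-checked the reads with FastQC and MultiQC, quantified them with Salmon (build mm10; the transcript annotation is not given in the sources used here) and deposited 4 tables of estimated counts per gene, not normalized; their own tests used DESeq2. The 2 diets of the time series, the diet experiment and the corticosterone experiment are separate tables. Another 6 sample columns, which match no sample used here, were left out. Estimated counts were rounded to whole numbers. Of 27654 gene IDs 27244 were paired with symbols; the 410 others held 0.107% of counts and stayed in the fits. No 2 libraries of the same group agreed within sampling noise (102 pairs checked), and pairs across groups were not checked.

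Groups were compared with edgeR 4.0.16 in R 4.3.3 (TMM, filterByExpr at a minimum count of 10, quasi-likelihood test, Benjamini-Hochberg over all genes tested, called under 0.05); the tests were tested on simulated data. CPM used TMM within a table. Rhythms were called with JTK_CYCLE (period of 24 h, amplitude above 0.1) on variance-stabilised values from DESeq2 1.42.0, which also served as an alternative test; other alternatives were RLE scaling, no filter, a replicate block, a joint fit per diet and each library left out. The members and lists were chosen with earlier results of these data known. Named were all 10 members, of each other list at most the 3 called genes with the largest log2 fold change in a contrast, and the 3 genes most like each member. Replicate numbers did not pair libraries: in no contrast were all same-number correlations over 0.1.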

Additional observations from a re-analysis of the deposited data

Results flagged for a closer look

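Of 60 sets of values examined (10 members in 6 groups of 4 libraries), 6 had a library far from the others of its group, where chance flags about 1 in 20. These were ctrl. WT ZT12 replicate 3 in Serpina3c (171 CPM), Serpina3m (540 CPM) and Serpina3n (316 CPM), ctrl. WT ZT20 replicate 2 in Serpina3c (194 CPM), ctrl. GRLKO ZT12 replicate 2 in Serpina3c (83.4 CPM) and ctrl. WT ZT8 replicate 3 in Serpina12 (40.8 CPM). Groups of 3, which include every cal. res. group, were not examined in this way.

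The genotype difference of Serpina3k was larger on cal. res. than on ctrl. by the interaction test at ZT8 (-1.96, log2), ZT12 (-2.64) and ZT16 (-2.02). The genotype difference changed over the day by the F test for Serpina3m on cal. res. (edgeR adjusted p = 0.00875), Serpina3c on cal. res. (adjusted p = 0.0145) and Serpina3n on ctrl. (adjusted p = 0.00844).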

How the results depend on the processing

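With DESeq2 in place of edgeR, member calls went from 11 to 25 for GRLKO against WT on cal. res. (all genes, summed over times, 2966 to 5255), from 9 to 17 on ctrl. (772 to 2466) and from 3 to 5 for the interaction (162 to 1037), and an edgeR F test in place of JTK_CYCLE took the rhythm calls from 12 to 22 (all genes 15916 to 27311). The replicate block took the ctrl. calls from 9 to 3 (all genes 772 to 182), and no contrast had paired replicate numbers. Leaving out 1 library moved the counts between 6 and 8 for diet, 8 and 19 for GRLKO on cal. res., 7 and 9 for GRLKO on ctrl., and 0 and 3 for corticosterone; leaving out a replicate number moved them between 1 and 2 for the interaction, 0 and 3 for genotype by time and 2 and 11 for rhythm. Over all genes the counts then moved from 6155 to between 4512 and 6471 for diet, from 2966 to between 2070 and 3010 for GRLKO on cal. res., from 772 to between 624 and 790 on ctrl., from 935 to between 206 and 1008 for corticosterone, from 162 to between 19 and 110 for the interaction and from 773 to between 126 and 744 for genotype by time. The highest cal. res. count, 19, came without GRLKO ZT0 replicate 1. With time-series WT livers at ZT12 the diet change of Serpina1d (-0.13) and of Serpina3c (0.39) turned in sign; the cause was not tested. In a joint fit of each diet (edgeR) the calls of Serpina1c, Serpina1d and Serpina1e on ctrl. at ZT8 (adjusted p = 0.736, 0.861 and 0.333) and of Serpina1e at ZT12 (0.121) and Serpina3c at ZT20 (0.114) on cal. res. were lost, and Serpina3k was also called at ZT0 (0.00759) and ZT20 (0.00658) on cal. res. and at ZT0 (0.000599) on ctrl. Fits without the 2 libraries with pancreas markers were chosen after seeing the data. With 3 or 4 libraries a group, changes were detectable only where they exceeded the spread between libraries.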
